A study of Mus musculus with 8 samples.

Results

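Described here are 8 genes of liver glucose metabolism, chosen by name: Pkm and Ldha at the end of glycolysis, the adult liver pyruvate kinase Pklr, the gluconeogenic genes Fbp1, Pck1 and G6pc, and the glycogen genes Pygl and Gys2. The choice was made with earlier results of these data known. The 8 genes carry 11 of the 25697 probes on the array and are 8 of the 16593 genes with a symbol. The samples were livers of male A/J mice, an inbred laboratory strain, with 2 arrays in each of 4 groups. In the first group the mice received carbon tetrachloride (CCl4) with erlotinib at 2 mg, in the second CCl4 with erlotinib at 5 mg, in the third CCl4 alone and in the fourth the olive oil vehicle. CCl4 is a hepatotoxin whose repeated dosing scars the liver, and erlotinib is a drug that blocks signalling by the EGF receptor kinase. CCl4 (0.1 cc of a 40% solution) or oil went by gavage 3 times weekly over 18 weeks. The design text dates death to week 19, after 1 week of washout, whereas the sample sources read week 18. All RNA came from frozen liver outside tumours, so every group shares strain, sex, gavage and tissue. The sources used here leave out the body weight basis, timing and route of the erlotinib doses, the feeding state and the hour of death.

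Glycolysis splits glucose into pyruvate, and gluconeogenesis runs the path backwards through a few enzymes of its own. Pyruvate kinase makes pyruvate in the last step of glycolysis. Hepatocytes of adult liver use the isoform encoded by Pklr, while Pkm encodes the isoforms of muscle, of fetal and proliferating cells and of most cells other than hepatocytes. Ldha encodes the lactate dehydrogenase subunit that favours the making of lactate. Pck1 (phosphoenolpyruvate carboxykinase), Fbp1 (fructose bisphosphatase) and G6pc (the catalytic subunit of glucose 6-phosphatase) carry irreversible steps of gluconeogenesis. The last of them releases free glucose to the blood. Gys2 is the glycogen synthase of liver and Pygl its glycogen phosphorylase, which opens the store.

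Levels are log2 intensities after background correction and quantile normalization of the non-normalized table, and differences are between group means of 2 arrays, ± SE from limma. A gene rose or fell where limma gave a Benjamini-Hochberg adjusted p under 0.05 over the 11022 genes tested. Array medians lay between 99.8 and 129.8 before correction, and arrays of a group correlated at 0.984 to 0.988 across genes. A probe counts as above background on an array where it exceeds the 99th percentile of 1324 probes of chemosensory receptor genes there, and the lowest such signal lay between 6.37 and 6.45 on the log2 scale. All 8 genes passed the filter on dim probes, with 10 of their 11 probes, and 5 of them (Pkm, Ldha, Fbp1, G6pc and Pygl) stood above background on all 8 arrays. The labels do not say whether the 2 arrays of a treatment came from different mice, and p-values cover only the spread between arrays. Of 11 hepatocyte markers measured, 10 were above background on all 8 arrays. The sum of the signals of the 11 lay at 16.88 to 16.89 with erlotinib 2 mg, 16.91 to 16.97 with 5 mg, 17.01 to 17.03 with CCl4 and 16.87 to 16.88 with vehicle. Of the 11, 2 rose with CCl4 against vehicle, beside 6.75% of all genes. The median difference of the 11 was 0 in that comparison, and against CCl4 it was -0.157 with 2 mg and 0.102 with 5 mg. With either erlotinib dose against CCl4, 2 of the 11 fell, beside 4.45% of all genes with 2 mg and 4.65% with 5 mg.

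With CCl4, against vehicle, Pkm and Ldha rose and G6pc and Pygl fell. These were 4 of the 8 genes, beside 12.7% of all genes tested. Since the genes were chosen with earlier results of these data known, such shares describe them and do not test them as a set. With CCl4 and erlotinib 2 mg, against CCl4, Pkm and Ldha fell and Pygl and Gys2 rose, 4 of 8 beside 8.64% of all genes. With the 5 mg dose, against CCl4, Pkm and Ldha fell and Fbp1, Pygl and Gys2 rose, 5 of 8 beside 9.06% of all genes. Against vehicle, G6pc was the 1 gene of the 8 that fell with CCl4 and erlotinib 2 mg (beside 3.13% of all genes), and it was also the 1 that fell with 5 mg (beside 1.89%). The comparisons of erlotinib with CCl4 and of CCl4 with vehicle share the CCl4 arrays, so their opposite signs are not separate observations. In bulk liver, fewer cells of a type and less RNA per cell cannot be told apart.

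**Figure D1:**
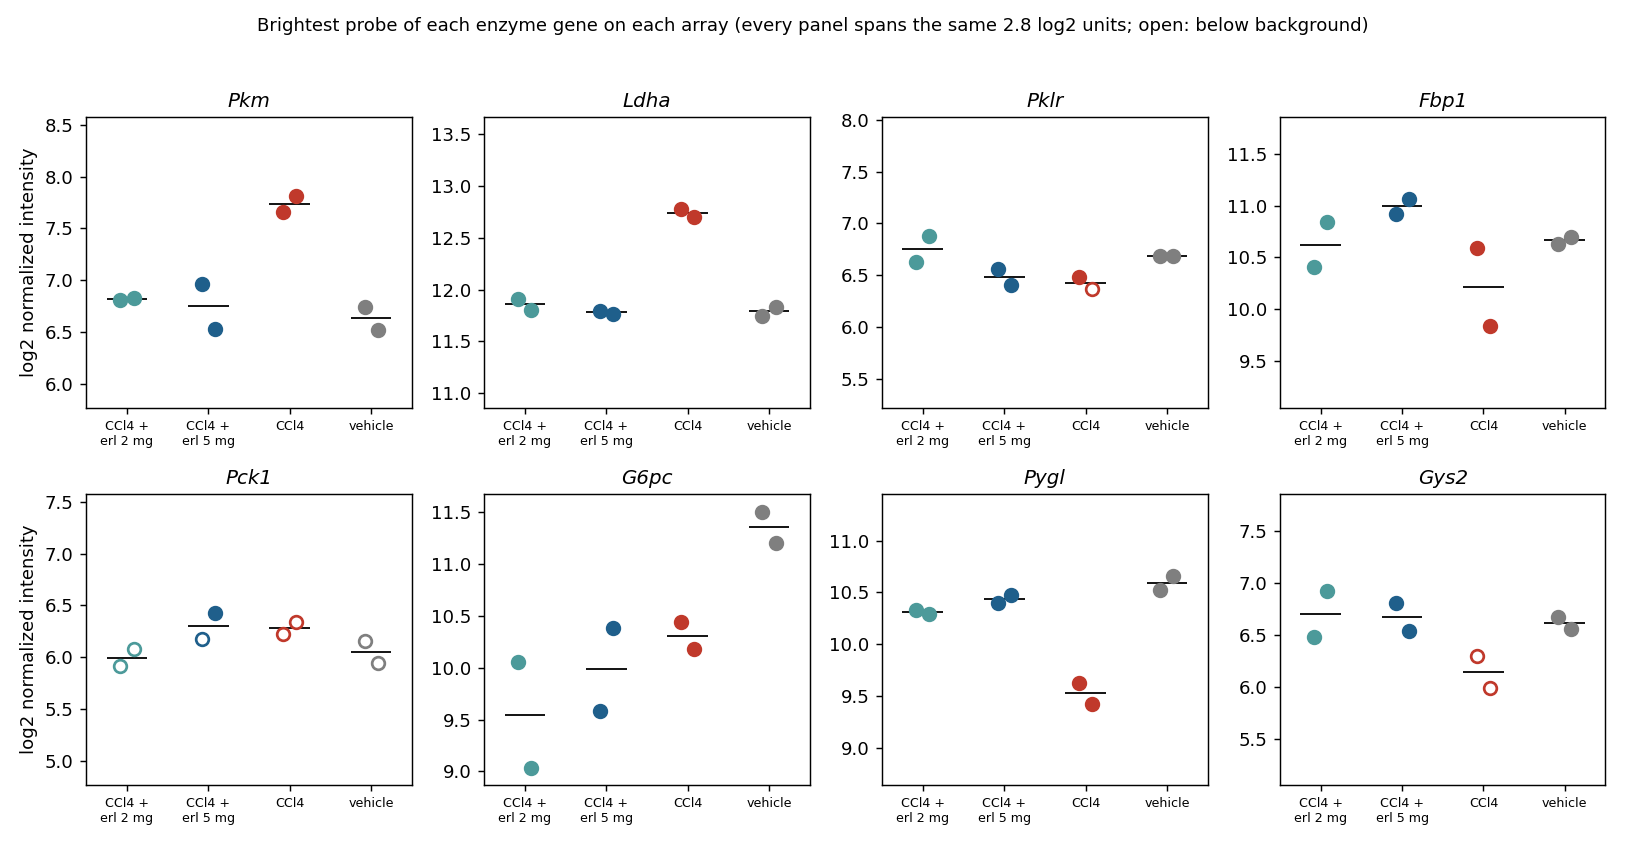
Log2 normalized intensity (vertical axis) of the brightest probe of each of the 8 genes on each array, by group, with a bar at the group mean and open circles for arrays under background. Both CCl4 arrays lie above all others for Pkm and Ldha and below all others for Pygl, while for G6pc both vehicle arrays lie above all others.

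Pkm read 6.81 and 6.83 with erlotinib 2 mg, 6.96 and 6.53 with 5 mg, 7.66 and 7.82 with CCl4, and 6.74 and 6.53 with vehicle. Both CCl4 arrays stood above the other 6, the 2 mg arrays lay just above the vehicle arrays, and the 5 mg arrays overlapped them. Pkm rose by 1.11 ± 0.14 with CCl4 against vehicle, a 2.15-fold difference (limma adjusted p 3.68e-05). It fell by 0.92 ± 0.14 with erlotinib 2 mg against CCl4 (adjusted p 0.000407) and by 0.99 ± 0.14 with 5 mg (adjusted p 0.000205). Against vehicle the difference was 0.18 with 2 mg (95% interval -0.12 to 0.48) and 0.12 with 5 mg (-0.19 to 0.42). All 3 calls were kept under each of the 16 alternatives run, with adjusted p-values of 3.99e-06 to 0.0448. The array has 1 Pkm probe, named from the gene as a whole, and the muscle and fetal isoforms are not told apart here. Outside the CCl4 group it passed background narrowly on some arrays. Before correction it read 138.6 against a limit of 133.9 on vehicle replicate 2, and 151.1 against 142.5 on 5 mg replicate 2. Signal this close to background limits how exactly the Pkm differences, and its ratios to other genes, are measured.

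Ldha read 11.91 and 11.80 with erlotinib 2 mg, 11.79 and 11.77 with 5 mg, 12.77 and 12.70 with CCl4, and 11.75 and 11.83 with vehicle. The CCl4 arrays stood apart from the other 6, which lay within a narrow band. Ldha rose by 0.95 ± 0.11 with CCl4, a 1.93-fold difference (limma adjusted p 1.78e-05), and fell by 0.88 ± 0.11 with erlotinib 2 mg (adjusted p 8.51e-05) and by 0.96 ± 0.11 with 5 mg (adjusted p 3.76e-05) against CCl4. Against vehicle the difference was 0.07 with 2 mg (95% interval -0.17 to 0.31) and -0.01 with 5 mg (-0.25 to 0.23). Median scaling of the arrays in place of quantile normalization ended all 3 Ldha calls, with the rise at 0.60 (adjusted p 0.104), the difference with 2 mg at -0.76 (adjusted p 0.0846) and that with 5 mg at -0.71 (adjusted p 0.0953). Whether the Pkm and Ldha probes also read processed pseudogenes was not examined here.

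The bases before the start sites of the 8 genes were searched for short motifs. These were the E-box (CACGTG, known to bind Myc), the cyclic AMP response element (TGACGTCA) and the hypoxia response core (ACGTG). The windows hold the 250 bases before a start site listed by RefSeq for GRCm38.p6, and both strands were searched. Pkm and Ldha each have 2 listed start sites. For each of them the window with a match is shown, 5′ to 3′ on the plus strand, with matched letters in capitals.
Ldha, chr7:46845554-46845803: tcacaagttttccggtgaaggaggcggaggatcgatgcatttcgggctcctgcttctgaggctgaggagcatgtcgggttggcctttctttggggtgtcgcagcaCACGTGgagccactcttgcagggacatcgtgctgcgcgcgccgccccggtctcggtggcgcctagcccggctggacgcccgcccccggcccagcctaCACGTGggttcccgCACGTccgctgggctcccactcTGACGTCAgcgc
Pkm, chr9:59656977-59657226: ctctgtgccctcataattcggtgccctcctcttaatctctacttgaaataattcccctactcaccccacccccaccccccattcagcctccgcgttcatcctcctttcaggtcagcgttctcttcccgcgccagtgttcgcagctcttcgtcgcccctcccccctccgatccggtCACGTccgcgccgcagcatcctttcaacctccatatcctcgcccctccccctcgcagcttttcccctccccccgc
The Ldha window held 2 E-boxes, at 145 to 140 and 48 to 43 bases before the start, and 1 cyclic AMP response element at 12 to 5 bases before it. It also held 5 matches of the core ACGTG, of which the E-boxes contain all but the 1 at 34 to 30 bases before the start. The Pkm window held 1 core match, at 75 to 71 bases before the start, read on the opposite strand. Among 32851 RefSeq windows of this length, 6.02% held CACGTG, 1.55% held TGACGTCA and 16.6% held ACGTG. RefSeq windows were matched for 7 of the 8 genes (all but Gys2), 10 in all, and of the other windows the Pygl one held 1 core match. These are letter matches and say nothing of binding in these livers.

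Pklr has 3 probes, all dim. The brightest read 6.63 and 6.88 with erlotinib 2 mg, 6.56 and 6.40 with 5 mg, 6.48 and 6.36 with CCl4, and 6.69 and 6.69 with vehicle, and it was under background on 1 CCl4 array. Both CCl4 arrays lay below both vehicle arrays, but the difference of -0.27 ± 0.12 missed the threshold (limma adjusted p 0.222). The difference from CCl4 was 0.33 with erlotinib 2 mg (adjusted p 0.127) and 0.06 with 5 mg (adjusted p 0.899). The middle Pklr probe was above background on 2 arrays and read 6.39 and 6.38 with erlotinib 2 mg, 6.35 and 6.37 with 5 mg, 6.03 and 6.03 with CCl4, and 6.46 and 6.33 with vehicle. In a fit over all named probes that were kept, in which 11.5% were called with CCl4 against vehicle, it was at least 1.01-fold lower with CCl4 (adjusted p 0.0469), the group means being 6.03 and 6.39. The third probe was under background on every array and was left out as dim.

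Of the gluconeogenic genes, G6pc was lower in every group given CCl4 than with vehicle. It read 10.06 and 9.04 with erlotinib 2 mg, 9.58 and 10.39 with 5 mg, 10.44 and 10.18 with CCl4, and 11.51 and 11.21 with vehicle. Both vehicle arrays lay above the other 6, and the erlotinib arrays spread over more than the distance between the CCl4 arrays (SD 0.72 with 2 mg and 0.57 with 5 mg, against 0.18 with CCl4). G6pc fell by 1.05 ± 0.27 with CCl4 against vehicle (limma adjusted p 0.0128), by 1.81 ± 0.27 with erlotinib 2 mg against vehicle (adjusted p 0.000729) and by 1.37 ± 0.27 with 5 mg against vehicle (adjusted p 0.0096). In folds the vehicle level was 2.07 times that with CCl4, 3.51 times that with 2 mg and 2.59 times that with 5 mg. Against CCl4 the difference was -0.76 with 2 mg (95% interval -1.32 to -0.20, adjusted p 0.099) and -0.32 with 5 mg (-0.88 to 0.24, adjusted p 0.644).

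The G6pc call with CCl4 against vehicle ended with the authors' normalized values (-0.996, adjusted p 0.0971), an intensity trend in the prior (-1.05, 0.284), without CCl4 replicate 2 (-0.92, 0.112) and without vehicle replicate 1 (-0.90, 0.154). That of G6pc with 2 mg against vehicle ended with the intensity trend (-1.81, adjusted p 0.177). The call with 5 mg against vehicle ended with median scaling (-1.50, adjusted p 0.0801), the authors' values (-1.31, 0.136), the intensity trend (-1.37, 0.383) and no background correction (-1.33, 0.0636). It also ended without 5 mg replicate 1 (-0.97, adjusted p 0.202), vehicle replicate 1 (-1.22, 0.191) or vehicle replicate 2 (-1.52, 0.0545). Without 2 mg replicate 1, G6pc also fell against CCl4 with 2 mg, by 1.27 (adjusted p 0.00669), whereas without 2 mg replicate 2 the difference was -0.25 (adjusted p 0.722).

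Fbp1 read 10.41 and 10.84 with erlotinib 2 mg, 10.92 and 11.07 with 5 mg, 10.59 and 9.84 with CCl4, and 10.63 and 10.70 with vehicle. 1 CCl4 array lay near the vehicle arrays and the other well below all others (SD 0.54 with CCl4, against 0.05 with vehicle). Fbp1 rose by 0.78 ± 0.19 with erlotinib 5 mg against CCl4 (limma adjusted p 0.0144). The difference from CCl4 was 0.41 with 2 mg (adjusted p 0.27), and that of CCl4 from vehicle was -0.45 ± 0.19 (adjusted p 0.167). The Fbp1 call with 5 mg ended with the authors' values (adjusted p 0.0883), with median scaling (0.288) and without CCl4 replicate 2 (0.276), 5 mg replicate 1 (0.0541) or 5 mg replicate 2 (0.131). Without CCl4 replicate 1, Fbp1 fell by 0.83 with CCl4 against vehicle (adjusted p 0.00368) and rose by 0.79 with 2 mg against CCl4 (adjusted p 0.0074). Without CCl4 replicate 2 these differences were -0.08 (adjusted p 0.903) and 0.03 (adjusted p 0.976).

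The Pck1 probe was above background on 1 array, the second with erlotinib 5 mg, and read 5.91 and 6.08 with erlotinib 2 mg, 6.17 and 6.43 with 5 mg, 6.22 and 6.34 with CCl4, and 6.16 and 5.94 with vehicle. No limma comparison passed, with adjusted p-values of 0.242 to 0.996, and a probe this close to background does not show whether Pck1 changed.

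Both glycogen genes were lower with CCl4 than with either erlotinib dose. The brighter Pygl probe read 10.33 and 10.29 with erlotinib 2 mg, 10.40 and 10.48 with 5 mg, 9.63 and 9.43 with CCl4, and 10.52 and 10.66 with vehicle. The CCl4 arrays lay below the other 6, and the vehicle arrays lay above all arrays of both erlotinib groups. Pygl fell by 1.06 ± 0.12 with CCl4 against vehicle (limma adjusted p 9.12e-06), and rose by 0.78 ± 0.12 with erlotinib 2 mg (adjusted p 0.000371) and by 0.91 ± 0.12 with 5 mg (adjusted p 9.01e-05) against CCl4. Against vehicle the differences were -0.28 with 2 mg (95% interval -0.53 to -0.03, adjusted p 0.315) and -0.15 with 5 mg (-0.40 to 0.10, adjusted p 0.755).

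The dimmer Pygl probe, above background on all 8 arrays, read 7.62 and 7.53 with erlotinib 2 mg, 7.68 and 7.59 with 5 mg, 7.35 and 6.73 with CCl4, and 7.96 and 8.05 with vehicle. In the fit over probes it fell by 0.96 with CCl4 (limma adjusted p 0.000301) and rose by 0.53 with 2 mg (adjusted p 0.0464) and by 0.59 with 5 mg (adjusted p 0.0218) against CCl4, beside 8.1% and 8.33% of probes called in the comparisons with erlotinib. The fall of Pygl with CCl4 was kept under all 16 alternatives. Median scaling ended the Pygl calls against CCl4, with differences of 0.79 with 2 mg (adjusted p 0.106) and 0.97 with 5 mg (adjusted p 0.0519).

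Gys2 read 6.48 and 6.92 with erlotinib 2 mg, 6.81 and 6.54 with 5 mg, 6.30 and 5.99 with CCl4, and 6.68 and 6.56 with vehicle. Both CCl4 arrays were under background and the other 6 above it, some of them narrowly. Before correction Gys2 read 119.1 against a limit of 118.1 on 2 mg replicate 1, and 140.4 against 133.9 on vehicle replicate 2. Gys2 was at least 1.25-fold higher with erlotinib 2 mg than with CCl4 (means 6.70 and 6.14, limma adjusted p 0.0327) and at least 1.22-fold higher with 5 mg (mean 6.67, adjusted p 0.0423). With CCl4 against vehicle the means were 6.14 and 6.62, and the difference missed the threshold (adjusted p 0.0591). The call of Gys2 with 2 mg ended under 8 of the 16 alternatives (adjusted p up to 0.346) and that with 5 mg under 9 (adjusted p up to 0.378), among them median scaling, the authors' values, no background correction and leaving out CCl4 replicate 2, vehicle replicate 1 or vehicle replicate 2. Leaving out 2 mg replicate 2 ended the first, and leaving out 5 mg replicate 1 or 2 the second. Without CCl4 replicate 1 or either 2 mg array Gys2 fell with CCl4 against vehicle (adjusted p 0.035, 0.0361 and 0.0361), as it did with the intensity trend (0.0374) or only the compared arrays (0.0499).

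**Figure D2:**
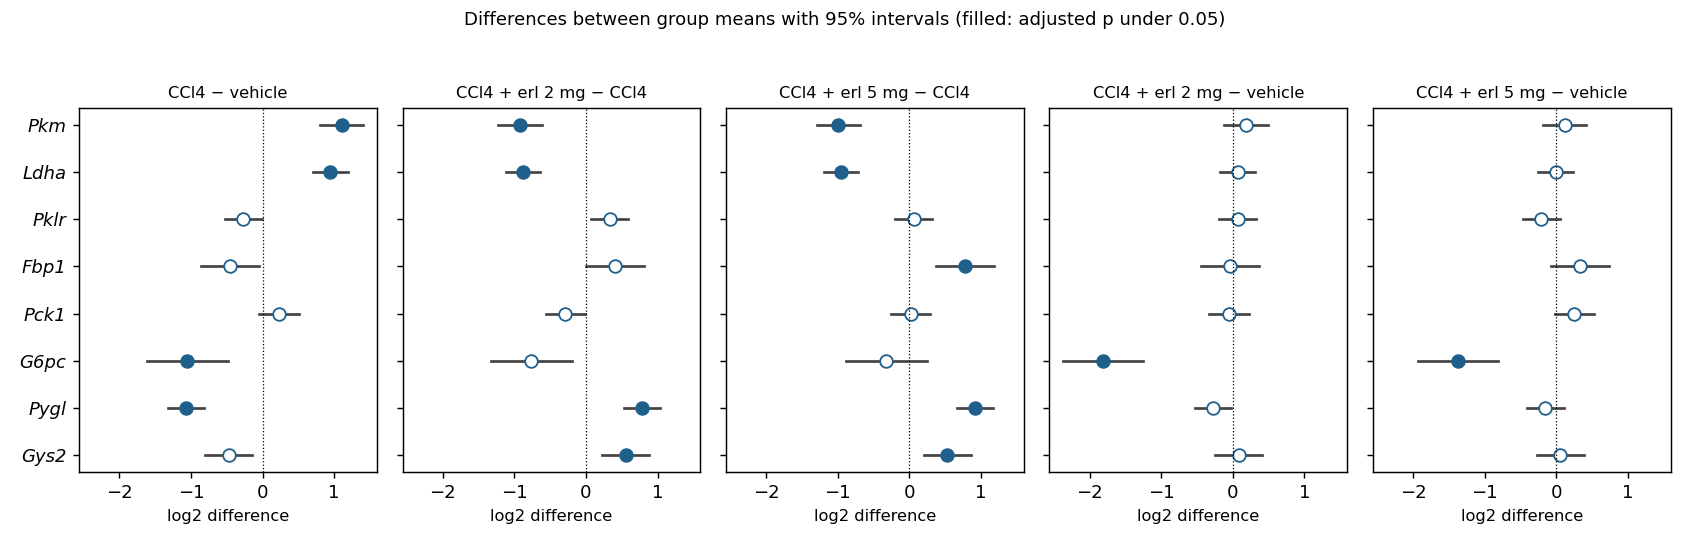
Log2 difference between group means (horizontal axis) with its 95% interval for each of the 8 genes in 5 comparisons, filled where the limma adjusted p was under 0.05. In the 2 panels against vehicle at the right, G6pc is the gene with filled symbols, at -1.81 with 2 mg and -1.37 with 5 mg.

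The ratios of Pkm and Ldha to the liver enzymes on the same array were higher with CCl4 than with vehicle. The log2 ratio of Pkm to Pklr, less its vehicle mean, was 0.00 to 0.23 with erlotinib 2 mg, 0.18 to 0.46 with 5 mg, 1.24 to 1.51 with CCl4 and -0.11 to 0.11 with vehicle. The size of the higher CCl4 value is not exact, since Pklr was under background on that array. For Pkm over Pygl these ranges were 0.43 to 0.50 with 2 mg, 0.01 to 0.52 with 5 mg, 1.99 to 2.35 with CCl4 and -0.18 to 0.18 with vehicle. The CCl4 arrays stood clear of both erlotinib doses and of vehicle in these ratios. For Ldha over Pygl the ranges were 0.31 to 0.38 with 2 mg, 0.09 to 0.19 with 5 mg, 1.95 to 2.07 with CCl4 and -0.03 to 0.03 with vehicle. Ldha over Fbp1 was at -0.16 to 0.38 with 2 mg, -0.42 to -0.25 with 5 mg, 1.06 to 1.74 with CCl4 and -0.01 to 0.01 with vehicle.

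The ratios to G6pc ran otherwise. Pkm over G6pc was 1.47 to 2.51 with 2 mg, 0.87 to 2.10 with 5 mg, 1.95 to 2.36 with CCl4 and -0.04 to 0.04 with vehicle, so the arrays of both doses overlapped the CCl4 arrays and not the vehicle arrays. Ldha over G6pc was 1.42 to 2.33 with 2 mg, 0.95 to 1.78 with 5 mg, 1.90 to 2.09 with CCl4 and -0.19 to 0.19 with vehicle, so the 2 mg arrays overlapped the CCl4 arrays while the 5 mg arrays lay between CCl4 and vehicle. A comparison of 2 arrays with 2 cannot go below p = 0.333 in an exact two-sided permutation test, so these ratios are given without one. They show unequal change between 2 genes and do not say which of them moved.

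**Figure D3:**
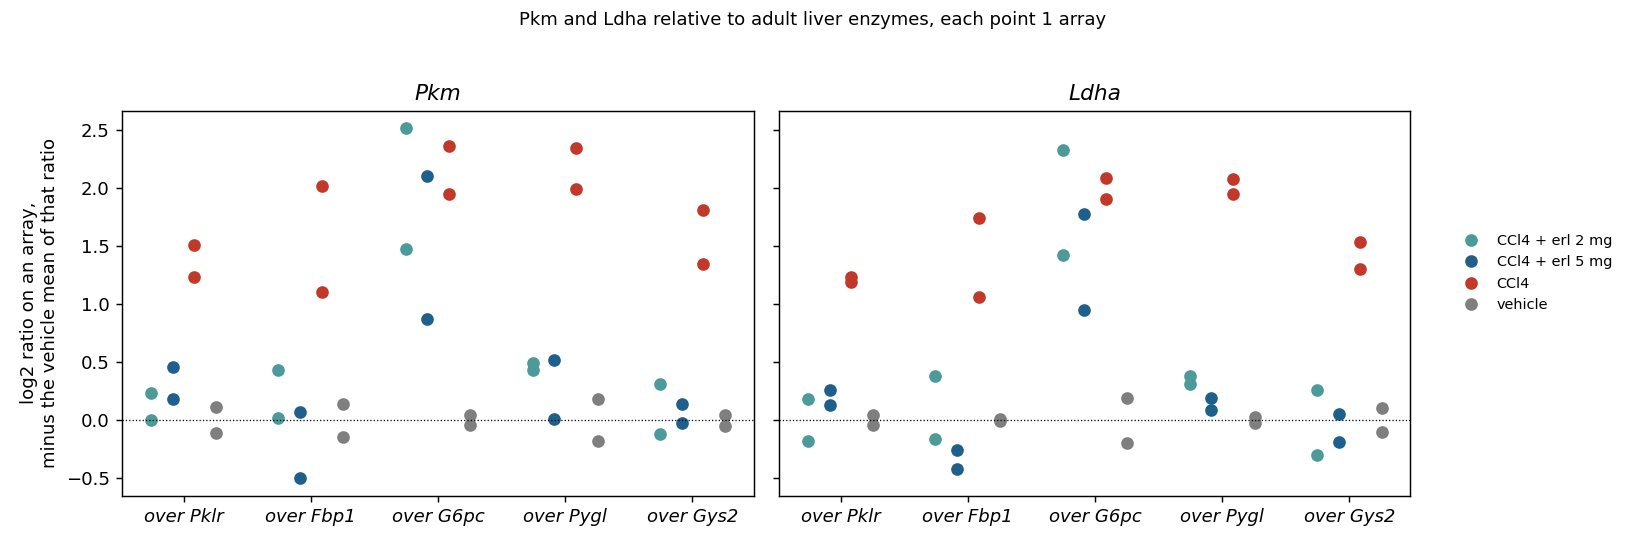
Log2 ratio of Pkm (left) and Ldha (right) to 5 liver enzyme genes on each array, less the mean of that ratio in the vehicle arrays (vertical axis), coloured by group. For the ratios to Pklr, Fbp1, Pygl and Gys2 the CCl4 arrays lie above all others. Pklr was under background on 1 CCl4 array and Gys2 on both, so the sizes of those ratios are not exact. For the ratios to G6pc all erlotinib arrays lie above the vehicle arrays.

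The doses of 5 mg and 2 mg did not part any of the 8 genes in limma (0 called, beside 0.0181% of all genes). At an unadjusted p under 0.05 there were 2 of 8, beside 4.58% of all genes: Pklr (-0.27, 95% interval -0.54 to -0.01) and Pck1 (0.31, 95% interval 0.03 to 0.58), both dim. The intervals for 5 mg less 2 mg were -0.37 to 0.23 for Pkm, -0.32 to 0.16 for Ldha, -0.12 to 0.38 for Pygl and -0.36 to 0.30 for Gys2. For G6pc the interval ran from -0.12 to 1.0 and for Fbp1 from -0.04 to 0.78.

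Around the 8 genes, 8 lists of glucose metabolism held 125 genes, of which 82 were tested. The lists too were chosen with earlier results of these data known, so the shares below do not test them as sets. With CCl4 against vehicle 3 of the 82 rose and 14 fell, beside 6.75% of all genes that rose and 5.93% that fell. The median difference was -0.06, beside -0.002 for all genes. Of 12 genes of upper and middle glycolysis, Aldoa (0.73), Tpi1 (0.56) and Gapdh (0.50) rose, the enzymes that split fructose bisphosphate, interconvert the trioses and oxidise glyceraldehyde phosphate. In the same list Pfkm, the muscle phosphofructokinase subunit, fell by 0.40 and the aldolase gene Aldoc was at least 1.14-fold lower. A second Gapdh probe gave 0.58 (limma adjusted p 0.00176), but another bright Tpi1 probe gave 0.03 (adjusted p 0.952) and another Pfkm probe -0.11 (adjusted p 0.755), so these probes disagree.

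Of 6 genes of glucose entry and hexokinases, Slc2a2, the glucose transporter GLUT2 of hepatocytes, fell by 0.50 (limma adjusted p 0.0204) and Gckr, which encodes a regulatory protein of hepatocyte glucose phosphorylation, by 0.66 (adjusted p 0.00514). Among 18 regulators, Mlxipl, the carbohydrate response factor that drives Pklr, fell by 1.30 (adjusted p 1.54e-06), Cebpa by 0.68 and Creb3l3 by 0.56. Of 15 glycogen genes, Ugp2, which makes the glucose donor of glycogen, fell by 0.57, the glycogen targeting subunit Ppp1r3c by 0.54 and the glycogen binding Stbd1 by 0.45, and 0 rose. Of 12 pyruvate and lactate genes 3 fell and 0 rose: the D-lactate dehydrogenase Ldhd (-0.61), the pyruvate dehydrogenase subunit Pdha1 (-0.46) and its phosphatase Pdp2 (-0.97). Galt, of galactose breakdown, fell by 0.83, the 1 gene called of 4 in its list, and 0 of 10 gluconeogenesis genes and 0 of 5 pentose phosphate genes passed in limma (4 and 1 at an unadjusted p under 0.05, beside 21.6% of all genes).

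With erlotinib 2 mg against CCl4, 11 of the 82 rose and 3 fell, beside 4.18% of all genes that rose and 4.45% that fell (median 0.03, against -0.001 for all genes). Slc2a2 rose by 0.68, Gckr by 0.72, Mlxipl by 0.92, Cebpa by 0.70 and Pdp2 by 0.96. Khk, the fructokinase that starts fructose breakdown, rose by 1.02 (limma adjusted p 0.000731). In the gluconeogenesis list Pcx, the pyruvate carboxylase that feeds the pathway, rose by 0.44, and the alanine transaminases Gpt and Gpt2 by 0.57 and 0.53. Phka2, a phosphorylase kinase subunit, rose by 0.53, and Aldoc was at least 1.20-fold higher. The widely expressed glucose transporter Slc2a1 fell by 0.50 and the transcription factor Cebpb by 0.65, and Sik1, a kinase that restrains gluconeogenic transcription, was at least 1.02-fold lower on a probe above background on 2 arrays.

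With 5 mg against CCl4, 12 of the 82 rose and 1 fell, beside 4.41% of all genes that rose and 4.65% that fell (median 0.04, against -0.001 for all genes). Txnip, which restrains glucose uptake, rose by 1.26 (limma adjusted p 0.000107), Mlxipl by 0.88, Cebpa by 0.85, Slc2a2 by 0.77 and Gckr by 0.62. Khk rose by 0.73, Galt by 0.53, Creb3l3 by 0.55, Pdp2 by 0.96, Ldhd by 0.65, Pcx by 0.52 and Gpt by 0.49, and Tpi1 fell by 0.48, while its other bright probe gave -0.02 (adjusted p 0.98). Of the 82 genes 0 passed in limma between 5 mg and 2 mg, with 8 at an unadjusted p under 0.05, beside 4.58% of all genes.

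Of these 44 calls in the 3 comparisons, Galt and Mlxipl with CCl4 against vehicle were kept under all 16 alternatives, and the other 42 ended under at least 1. Median scaling ended each of the 42, and no alternative turned the direction of any of the 44. The authors' values ended 17, averaging the probes of a gene 10, fitting only the compared arrays 9, no background correction 8 and the intensity trend 5. Leaving out CCl4 replicate 2 ended 31 of them, CCl4 replicate 1 ended 13, vehicle replicate 1 ended 12 and vehicle replicate 2 ended 8, and leaving out an erlotinib array ended 5 to 12. Other probes of Slc2a2 (-0.51 and -0.19 with CCl4) and of Ldhd (-0.51 and -0.12), and the second probe of Pdp2 (-0.36, adjusted p 0.193) gave smaller or uncalled differences in places, and 2 further Phka2 probes were not called with 2 mg (0.22 and 0.11). Against CCl4 these Slc2a2 probes gave 0.38 and 0.31 with 2 mg and 0.30 and 0.40 with 5 mg, none called. The second Pdp2 probe gave 0.24 with 2 mg and 0.46 with 5 mg, and the other Ldhd probes 0.51 and 0.31 with 5 mg, also uncalled. The second probes of Khk and Galt gave like values (0.71 with 2 mg and 0.64 with 5 mg for Khk, -0.88 with CCl4 for Galt). That Khk probe was also called lower with CCl4 against vehicle (-0.62, limma adjusted p 0.0393, beside 11.5% of probes called). The brightest Khk probe was not called in that comparison. With 5 mg the second Galt probe gave 0.46 and was not called (limma adjusted p 0.0886).

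**Figure D4:**
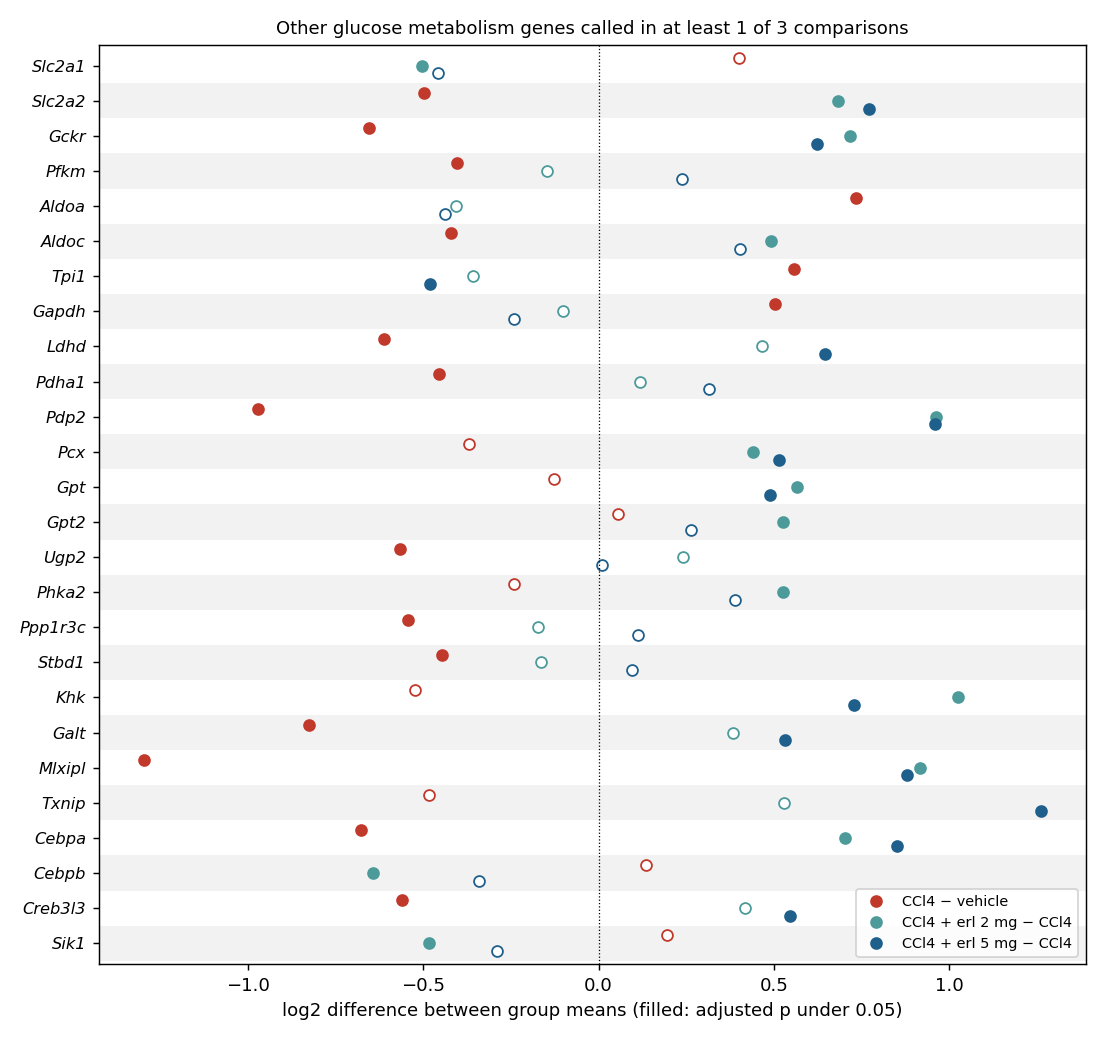
Log2 difference between group means (horizontal axis) of 26 further genes of glucose metabolism in 3 comparisons, filled where the limma adjusted p was under 0.05. Mlxipl lies at -1.30 with CCl4 against vehicle and at 0.92 and 0.88 with erlotinib 2 mg and 5 mg against CCl4, comparisons that share the CCl4 arrays.

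Over the 8 arrays the log2 levels of Pkm and Ldha correlated at r = 0.943 (Pearson), and those of Pkm and Pygl at -0.977. G6pc followed none of the other bright members, with r of -0.182 to Pkm, -0.014 to Ldha, -0.106 to Fbp1 and 0.225 to Pygl. These values describe 8 arrays in 4 groups that share the group differences. Among the genes tested, 245 correlated above 0.9 with Pkm, 262 with Ldha, 246 with Pygl, 21 with Fbp1 and 10 with G6pc. The 3 genes whose levels ran most like Pkm were the small GTPase Rhoc (0.992), the polyamine oxidase Smox (0.987) and the RNA processing gene Lsm4 (0.981). For Ldha they were Krtcap2 (0.991), Thoc5 (0.99) and Serp1 (0.989), and for Pygl Spata2l (0.995), the epoxide hydrolase Ephx2 (0.988) and plasma kallikrein Klkb1 (0.987). For Fbp1 they were Cds2 (0.964), the corticosteroid binding globulin Serpina6 (0.959) and the coagulation factor F12 (0.958), and for G6pc Selenoi (0.968), Ldb3 (0.952) and Ptpn22 (0.939), of which Ldb3 was above background on 1 array and Ptpn22 on 0. The Cds2 probe was above background on 2 arrays.

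The summed markers of macrophages, proliferation, hepatocytes (given above) and neutrophils were highest with CCl4, while those of stellate cells overlapped between CCl4 and 2 mg. Each sum adds linear signals, so the brightest markers of a list weigh most in it. The 5 neutrophil markers summed to 8.38 to 8.57 with 2 mg, 8.51 to 8.55 with 5 mg, 8.62 to 8.67 with CCl4 and 8.33 to 8.49 with vehicle. Of these 5, S100a8 was above background on 4 arrays, Cxcr2 on 1 and the others on 0. The summed signal of 9 macrophage and Kupffer cell markers was 10.91 to 11.33 with erlotinib 2 mg, 11.04 to 11.05 with 5 mg, 11.61 to 11.70 with CCl4 and 10.33 to 10.47 with vehicle. Of these 9, Cd14, Lyz2, C1qb and C1qc rose with CCl4 against vehicle (4 of 9, beside 6.75% of all genes). Cd14 alone fell with either erlotinib dose (1 of 9, beside 4.45% of all genes with 2 mg and 4.65% with 5 mg). The sum of 10 stellate cell and myofibroblast markers was 10.81 to 10.90 with 2 mg, 10.52 to 10.72 with 5 mg, 10.89 to 11.22 with CCl4 and 10.40 to 10.40 with vehicle. With CCl4 there were 4 rises of 10 (Acta2, Col1a1, Dcn and Lum, beside the same 6.75%). Acta2 alone fell with either dose (1 of 10, beside 4.45% with 2 mg and 4.65% with 5 mg). Col3a1 and Rgs5 were under background on every array. The 4 proliferation markers tested summed to 10.48 to 10.52 with 2 mg, 9.49 to 10.15 with 5 mg, 11.19 to 11.65 with CCl4 and 9.11 to 9.22 with vehicle. Ccnd1, Mcm2 and Mcm5 rose with CCl4 (3 of 4, beside 6.75%). They fell with either dose (beside 4.45% of all genes with 2 mg and 4.65% with 5 mg). Ccnd1 was above background on 8 arrays, Mcm5 on 6, Cdk1 on 4 and Mcm2 on 3. Of the 9 genes listed, Top2a, Pcna and Ccna2 were too dim to test and Mki67 and Ccnb1 had no listed probe. Of 8 endothelial markers 0 passed in limma with CCl4 against vehicle or with either dose against CCl4, beside 12.7%, 8.64% and 9.06% of all genes. Of 2 erythroid markers 1 fell with CCl4 (beside 5.93% of all genes), and 1 rose with either dose (beside 4.18% with 2 mg and 4.41% with 5 mg). All 3 tested cholangiocyte markers (Sox9, Cldn7 and Prom1) were under background on every array, as were the leukocyte marker Ptprc and the 1 tested skeletal muscle marker, Myh4. The part of these cells in the Pkm and Ldha results was not tested.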

How the data were processed

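Each of 8 Illumina BeadArrays measured RNA of 1 liver sample, and the groups were read from the treatment labels. The deposited non-normalized table holds probe intensity on a linear scale, and a second deposited table holds intensity that the authors normalized by a method that no source used here states. The tables matched at a rank correlation of 0.9996 to 0.9999 per array. Neither holds detection p-values or slides, so a slide block was not run.

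Values were background-corrected (normexp, offset 50), quantile-normalized and taken to log2 in limma 3.58.1 (R 4.3.3). Probes above the 40th percentile of mean signal were kept (15418), the brightest stood for its gene, and all 4 groups were fitted together by lmFit and eBayes, with 4 degrees of freedom from the arrays and 11.9 from the prior. Other probes were tested in a fit over all named probes kept. The platform annotation named 23978 probes and left 1719 unnamed. The fit was tested on simulated data. Marker sums are log2 of summed normalized intensity.

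Each array was left out in turn, and 8 other settings were run: median scaling, the deposited normalized values, uncorrected background, the dim filter dropped or replaced by 2 arrays above background, eBayes with intensity trend and robust options, averaged probes, and fits to the compared groups alone. Where leaving out an array left 1 in a group, its spread is taken from the remaining groups. An "at least" fold is given where every array of 1 group was under background. Every called gene of the wider lists is named, up to 4 per list and direction, with the 3 genes most like each bright member. The genes and lists were chosen with earlier results of these data known. The number of arrays limits the precision.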

Additional observations from a re-analysis of the deposited data

How the results depend on the processing

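No paired analysis was possible because replicate numbers follow accession order and pair nothing. Over 16 alternatives the 48 results (8 genes in 6 comparisons) gave 762 values, of which 695 kept direction and side of the threshold, 39 lost a call, 8 gained one and 20 turned direction. Of 15 calls, 4 were kept throughout, Pkm in all 3 of its comparisons and Pygl with CCl4 against vehicle.

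Counts of the 8 genes called moved as follows. Against CCl4, median scaling left 1 with 2 mg and 1 with 5 mg, and the authors' values left 3 with 5 mg. Against vehicle, the trend left 0 with 2 mg, and with 5 mg median scaling, the authors' values, the trend and no background correction each left 0. Leaving out an array gave 3 to 6 with CCl4 against vehicle, 3 to 5 with either dose against CCl4, 0 between doses, 1 with 2 mg and 0 to 1 with 5 mg against vehicle. Over all genes, median scaling called 481, 157 and 169 in the 3 comparisons, in place of 1398, 952 and 999, and the cause was not tested.

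The turned values were all of uncalled differences. Median scaling turned Ldha to 0.043 with 5 mg against 2 mg and to -0.160 with 2 mg against vehicle. The others came from leaving out 1 array. With 5 mg against CCl4 the ranges over arrays left out were -0.019 to 0.135 for Pklr, -0.724 to 0.079 for G6pc and -0.110 to 0.146 for Pck1 (also -0.042 without CCl4 replicate 1). With 5 mg against 2 mg they were -0.072 to 0.949 for G6pc, -0.250 to 0.195 for Gys2 (also 0.105 without 5 mg replicate 2) and -0.284 to 0.146 for Pkm. With 2 mg against vehicle they were -0.260 to 0.174 for Fbp1, -0.163 to 0.054 for Pck1 (also 0.028 without 2 mg replicate 1), -0.060 to 0.192 for Pklr and -0.138 to 0.307 for Gys2. With 5 mg against vehicle they were -0.101 to 0.330 for Pkm, -0.075 to 0.190 for Gys2 (also -0.003 without vehicle replicate 2) and -0.052 to 0.033 for Ldha (also 0.002 without 5 mg replicate 2).

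Signal over background limits Pklr, Pck1 and Gys2, and also Pkm outside the CCl4 group. The filter on 2 arrays above background removed Pck1. A slide block was not run.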

Other observations

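The 82 further genes of glucose metabolism were also compared with vehicle in livers given CCl4 with erlotinib, and those named here were picked with their values known. With 2 mg, 1 of the 82 genes rose and 4 fell in limma, beside 1.71% of all genes that rose and 1.42% that fell. The alanine transaminase Gpt2 rose by 0.58 (adjusted p 0.0374), while the glycogen binding Stbd1 fell by 0.61 (adjusted p 0.00516), Ppp1r3c by 0.72 (adjusted p 0.0264), Pfkm by 0.55 (adjusted p 0.0159) and Cebpb by 0.51 (adjusted p 0.0378). With 5 mg, Txnip rose by 0.78 (adjusted p 0.0224) and 0 of the 82 fell, a share of calls near the 1.89% of all genes. At an unadjusted p under 0.05 there were 12 in either direction, beside 10.8% of all genes. Whether the doses differ in these genes was not shown, since 0 of the 82 passed between them in limma.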
